A study of Cynara cardunculus with 36 samples.

Results

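The first week of cold storage was followed in hearts of the globe artichoke cultivar Opal (OP), by comparing 3 libraries of day 7 with 3 libraries of day 0, 6 of the 36 libraries of the series. The members were taken from the sample titles by cultivar and day, not by any measured value. Globe artichoke is Cynara cardunculus var. scolymus, and the heart is its edible core. The plants of all groups were grown in a field under GA (gibberellin) treatment to bring flowering forward, and all heads were already held in the cold before the day 0 sampling, so day 0 is not the moment of harvest. Imperial Star (IS), Green Queen (GQ) and Green Globe Improved (GGI) are the other cultivars of the series, with 3 biological replicates for each cultivar at day 0, day 7 and day 14. Its stated aim was to find genes behind the rapid ageing and the loss of quality of the harvested heads, and the labels name the treatment as the progress of browning. By the library numbers, the day 7 libraries were numbered after all others, so that day and library order cannot be told apart.

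The artichoke is a flower head eaten before it opens, and it goes on respiring after it is cut, and cold storage slows this. Artichoke tissue is rich in caffeoylquinic acids, phenolic compounds that polyphenol oxidases and peroxidases can turn into brown pigments, and such browning limits the shelf life of the heads. Changes in cell walls, in sugars and in hormones such as ethylene are also part of the ageing of harvested vegetables. Which of these processes the transcripts below belong to is not known here: the 28632 gene models carry an ID and no name, and 0 of the IDs matched the 30275 genes of the RefSeq table for the assembly CcrdV1.1. No gene name, function, sequence or tissue marker could therefore be attached to a gene model, and at most 2 that rose and 2 that fell are named.

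Of the 6 Opal libraries, day 7 replicate 1 stood apart. Reads assigned to gene models numbered 36.2, 34.6 and 38.5 M (M as in CPM, counts per M reads) in day 0 replicates 1, 2 and 3, and 47.1 and 44.7 M in day 7 replicates 2 and 3, against 5.76 M in day 7 replicate 1. Reads outside gene models made up 71.0% of its listed reads, against 10.3% to 13.7% at day 0 and 16.0% and 12.3% in day 7 replicates 2 and 3. Reads with more than 1 alignment made up 13.8% of that library, against 2.49% to 3.14% in the other 5. Only 14682 gene models had any read in day 7 replicate 1, where the other 5 libraries would show 20311 to 20480 at its depth. Of 9865 gene models over 10 CPM in each of the other 5 libraries, 377 (3.82%) had 0 reads in it, although 1 read there is worth 0.276 CPM. Its 10 most abundant gene models took 14.0% of the reads in genes, against 5.54% to 6.21% in the other 5. At day 0, 4 gene models were on in Opal and off in the other cultivars, and all 4 were on in day 7 replicates 2 and 3, but 1 of 4 in replicate 1. Of 9 that were off in Opal alone, 8, 8 and 9 were off in day 7 replicates 1, 2 and 3. Counts of calls and the values of named gene models are therefore given with and without day 7 replicate 1. In the rest of the series, reads outside gene models made up 33.5% in GGI day 7 replicate 2 and 31.6% and 30.1% in GQ day 7 replicates 2 and 3, and 2 day 14 libraries (GGI replicate 1 and GQ replicate 1) carried markers of the other cultivar. Those 5 libraries enter the Opal comparison through the shared filter, scaling and estimate of the spread.

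**Figure D1:**
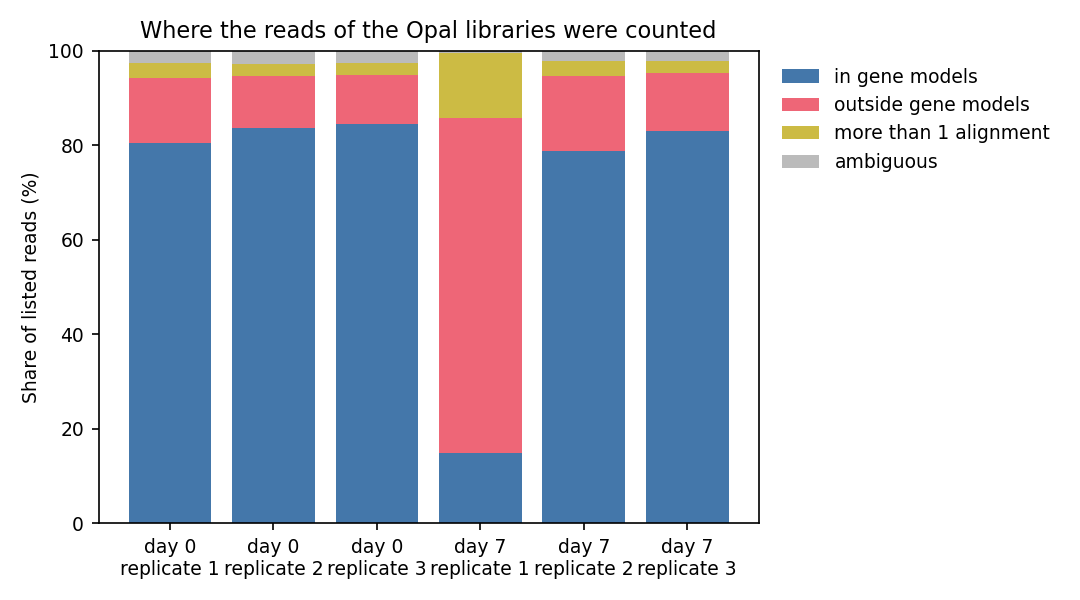
Share of listed reads (%, y axis) in gene models, outside them, with more than 1 alignment and ambiguous, stacked for each of the 6 Opal libraries (x axis). Day 7 replicate 1 has 14.8% of its reads in gene models and 71.0% outside them, whereas the other 5 libraries have 78.8% to 84.6% in gene models.

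Leaving that library aside, the hearts of day 7 differed from those of day 0 by amounts only moderately above the spread within a day. The median absolute difference in log2 CPM across gene models was 0.308 to 0.368 between day 0 libraries and 0.300 between day 7 replicates 2 and 3. Between day 0 libraries and these 2 day 7 libraries it was 0.459 to 0.588. Day 7 replicate 1 lay 1.49 to 1.56 from the day 0 libraries and 1.45 and 1.48 from its own group. In bulk tissue, fewer cells of a type and less RNA per cell cannot be told apart.

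With all libraries, 1881 of 21900 gene models tested were called between day 7 and day 0 (8.59%; edgeR quasi-likelihood test, adjusted p under 0.05), 1243 higher (5.68%) and 638 lower (2.91%) at day 7. Without day 7 replicate 1, 695 of 22309 were called (3.12%), 424 higher (1.90%) and 271 lower (1.21%). A common set of 581 was called in both fits with the same sign, which is 30.9% of the longer list and 83.6% of the shorter one. No gene model was called in opposite directions. Of the 1881, 60 had a fitted change of the other sign without replicate 1, and 481 had an unadjusted p over 0.05 there. The count also rested on the day 0 libraries. It was 589 without day 0 replicate 1, 450 without day 0 replicate 2 and 1131 without day 0 replicate 3. Fitted to the 6 Opal libraries alone it was 5 (2631 at an unadjusted p under 0.05), while the 5 libraries without day 7 replicate 1 gave 1306, 510 of them among the 695. Without the 3 other libraries high in reads outside gene models as well, 2326 were called in Opal (10.2%).

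**Figure D2:**
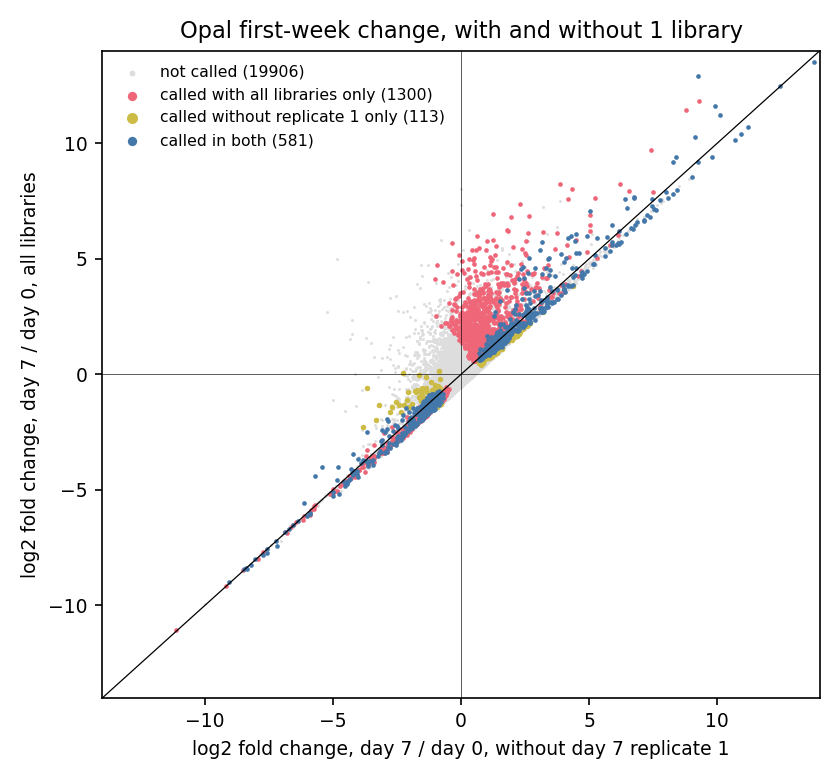
Fitted log2 fold change of each gene model between day 7 and day 0 in Opal, without day 7 replicate 1 (x axis) and with all libraries (y axis), coloured by the fit that called it; the line marks equal values. Gene models called with all libraries only lie mostly above the line on the side of higher expression, and the 581 called in both lie along it; 1 model called without replicate 1 was not tested with all libraries and is not drawn.

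Most called changes were over 2-fold, with a tail of very large ones. Small changes seldom pass the test, so sizes among calls do not describe all gene models. Over all tested, the median absolute log2 fold change was 0.491 without day 7 replicate 1. Without day 7 replicate 1, the median called rise was 4.07-fold, with quartiles of 2.45 and 10.1, and the median called fall was 3.42-fold, with quartiles of 2.37 and 7.41. Of the 424 called higher, 390 rose by over 2-fold and 82 by over 16-fold; of the 271 called lower, 239 fell by over 2-fold and 42 by over 16-fold. Calls past 2-fold made up 2.82% of all tested. With all libraries the median rise was 4.33-fold and the median fall 3.41-fold. The share of gene models called went up with the level at day 0. It was 1.90% of the 1842 gene models with a day 0 mean under 0.1 CPM, 2.47% of the 5983 between 1 and 10 CPM and 7.24% of the 1755 at 100 CPM and over (without replicate 1). With all libraries these shares were 4.86%, 7.77% and 16.6%. A test on counts passes more easily where reads are many, so these shares do not show that abundant transcripts changed more often. In the group under 0.1 CPM, 35 were called higher and 0 lower, a group in which a fall can hardly be seen. At 100 CPM and over the directions were close to even, with 68 higher and 59 lower.

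Most gene models that were called in both fits lay outside the day 0 range in all 3 day 7 libraries, 293 of the 355 that rose and 221 of the 226 that fell. Sets called with all libraries were picked on these same values, so lying outside the day 0 range is largely built in. Over all gene models tested, all 3 day 7 libraries were above day 0 in 9.84% and below it in 17.5%. With replicates 2 and 3 alone these shares were 22.5% and 24.2%, so the wide gap between them was seen only with replicate 1 included. For the 355 that rose, the median difference from the day 0 mean on the log2(CPM + 0.1) scale was 1.68, 2.33 and 2.01 in day 7 replicates 1, 2 and 3. For the 226 that fell it was -2.74, -1.74 and -1.80. The 888 gene models called higher with all libraries only had a median difference of 3.19 in replicate 1 and of 0.79 and 0.78 in replicates 2 and 3. In these 888, 628 were above all day 0 libraries in replicates 2 and 3 as well. The 412 called lower with all libraries only had medians of -2.54, -1.29 and -1.25, and in 402 of them replicates 2 and 3 were both below all day 0 libraries. Another 114 were called without replicate 1 only. The 69 of these that were higher had a median difference of -0.44 in replicate 1, against 1.33 and 1.23 in replicates 2 and 3. Over all gene models tested with all libraries, this median was -0.63 in replicate 1 and -0.0045 and -0.0082 in replicates 2 and 3. Medians of replicate 1 are therefore to be read against -0.63 and not against 0.

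**Figure D3:**
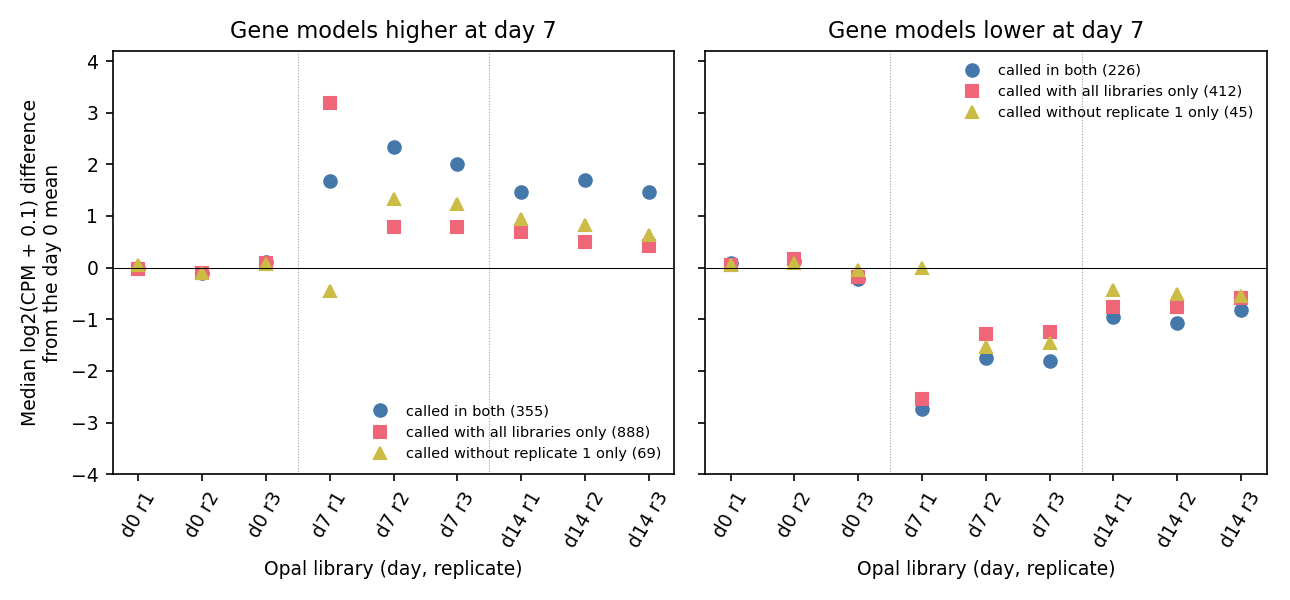
Median difference from the day 0 mean in log2(CPM + 0.1) (y axis) in each of the 9 Opal libraries (x axis; d is day, r is replicate) for gene models called higher (left) or lower (right) at day 7, split by the fit that called them. The 355 called higher in both fits are raised in all 3 day 7 libraries, at 1.68, 2.33 and 2.01, whereas the 888 called with all libraries only stand at 3.19 in replicate 1 and at 0.79 and 0.78 in the others.

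Groups that do not overlap were common. The 3 day 7 libraries were all above or all below the 3 day 0 libraries in 27.4% of the gene models tested, 2155 higher (9.84%) and 3835 lower (17.5%). With replicates 2 and 3 alone, 46.7% did not overlap, 4928 higher (22.5%) and 5291 lower (24.2%). The wide excess of lower gene models was therefore seen only with replicate 1 included. In replicate 1 the median log2 difference from the day 0 mean over all gene models tested was -0.63, and 7266 of them had 0 reads. The part of this offset in the excess was not tested, so the excess does not show that falls outnumbered rises in Opal hearts. Among the 424 called higher without replicate 1, all 3 day 7 libraries were above day 0 in 301, and among the 271 called lower all 3 were below in 230. These sets were picked on day 0 and on replicates 2 and 3, so part of this is built in.

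Gene models for naming were called in both fits with the same sign, had a mean of at least 1 log2 CPM in the Opal libraries and CPM that did not overlap, and had at least 10 reads on the lower day. This held for 452, 267 that rose and 185 that fell, and the 2 of each direction with the largest change in the smaller of the 2 fits are named. Calls, large changes and days that do not overlap in Opal are thus built into the named gene models. Their difference from the other cultivars reuses the same Opal values, so the naming favours a large one.

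V2_03g020160.1.01 had the largest rise by this rule. It stood at 1.41, 8.16 and 1.59 CPM in day 0 replicates 1, 2 and 3, and at 4090.3, 1181.0 and 1180.6 CPM in day 7 replicates 1, 2 and 3. The days did not overlap, as the naming rule required, and the library with most reads outside gene models was also the highest. The log2 fold change was 9.17 ± 1.96 (SE, n = 3 per day; edgeR, adjusted p = 0.00573) and without day 7 replicate 1 it was 8.28 ± 1.93 (adjusted p = 0.0179). The call was lost in the fit of the 6 Opal libraries alone (9.19, adjusted p = 0.0872; lowest and highest across the alternatives 1.65e-08 and 0.0872). At day 14 its level was 377, 296 and 276 CPM, below every day 7 library and above every day 0 library. In the other cultivars V2_03g020160.1.01 went the same way over this week, with a mean of 7.81 ± 7.57 CPM at day 0 and 747 ± 241 CPM at day 7 in GGI (SD over 3 libraries a day; edgeR, adjusted p = 0.0149) and of 0.0371 ± 0.0463 and 85.2 ± 104 CPM in GQ (adjusted p = 0.000855). In IS it had 0 reads at day 0 and 297 ± 298 CPM at day 7 (SD, n = 3).

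V2_01g008680.1.01 rose from 0.0230, 1.29 and 0.508 CPM at day 0, where the first of these values is 1 read, to 27.3, 160.4 and 176 CPM at day 7. Here day 7 replicate 1 was the lowest of its group, and the days did not overlap, as the naming rule required. The log2 fold change was 7.64 ± 1.81 (SE, n = 3 per day; edgeR, adjusted p = 0.0104), and 8.07 ± 1.87 without day 7 replicate 1 (adjusted p = 0.0156). The call was lost without day 0 replicate 1 (log2 fold change 7.07; edgeR, adjusted p = 0.0592) and in the fit of the 6 Opal libraries alone (adjusted p = 0.133). Its adjusted p ran from 4.65e-06 to 0.133 across the alternatives. By day 14 its level had come down to 10.3, 3.67 and 32.5 CPM, around the lowest day 7 library. In GQ its mean was 0.0453 ± 0.0232 CPM at day 0 and 29.0 ± 25.9 CPM at day 7 (SD over 3 libraries a day; edgeR, adjusted p = 0.00155) and in IS it was 0.0284 ± 0.0304 and 7.13 ± 10.1 CPM (adjusted p = 0.0120). In GGI, where it began at 2.96 ± 2.28 CPM and reached 25.3 ± 12.2 CPM, the difference did not pass (adjusted p = 0.163).

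V2_15g002580.1.01 had the largest fall by this rule. Its day 0 levels in Opal were nearly equal, at 39.6, 36.4 and 38.7 CPM, and at day 7 it was at 0, 0.0607 and 0.173 CPM, which are 0, 3 and 8 reads. The log2 fold change was -8.42 ± 1.15 (SE, n = 3 per day; edgeR, adjusted p = 0.000120), and -8.36 ± 1.33 without day 7 replicate 1 (adjusted p = 0.000691). It passed in every alternative, the fit of the 6 Opal libraries alone included (adjusted p = 0.0277). The loss was not kept at day 14, where V2_15g002580.1.01 stood at 13.7, 4.04 and 5.42 CPM, above every day 7 and below every day 0 library. In IS it rose, with means of 0.489 ± 0.419 CPM at day 0 and 17.4 ± 15.5 CPM at day 7 (SD over 3 libraries a day; edgeR, adjusted p = 0.000418), though IS day 7 replicate 2 was at 0.268 CPM, within the day 0 range. In GGI it rose from 3.23 ± 2.39 to 113 ± 45.8 CPM (adjusted p = 0.000668), and in GQ it fell from 131 ± 13.6 to 25.5 ± 6.92 CPM (adjusted p = 0.0227), a log2 fold change of -2.35. With the 1 GQ day 7 library low in reads outside gene models it was -2.04 and did not pass (adjusted p = 0.387). The change in Opal differed from the mean change of the other 3 cultivars by -11.06 on the log2 scale (edgeR, adjusted p = 1.56e-05), and by -10.98 without day 7 replicate 1 (adjusted p = 0.000277).

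V2_08g012340.1.01 fell from an uneven but high day 0 level of 762, 1107 and 212 CPM to 2.48, 5.56 and 1.04 CPM at day 7. The days did not overlap, as the naming rule required, though the day 0 libraries differed among themselves. The log2 fold change was -7.81 ± 1.66 (SE, n = 3 per day; edgeR, adjusted p = 0.00486), and -7.74 ± 2.03 without day 7 replicate 1 (adjusted p = 0.0322). With the 6 Opal libraries alone it was -7.81 and did not pass (adjusted p = 0.0854; lowest and highest across the alternatives 3.08e-09 and 0.0854). It stayed low at day 14, at 2.72, 0.974 and 2.41 CPM. In the other cultivars the first week brought no call: V2_08g012340.1.01 stood at 203 ± 87.1 CPM at day 0 and 26.3 ± 22.3 CPM at day 7 in IS (SD over 3 libraries a day; edgeR, adjusted p = 0.140), at 181 ± 229 and 198 ± 276 CPM in GGI (adjusted p = 0.967) and at 842 ± 433 and 2008 ± 1869 CPM in GQ (adjusted p = 0.452). The IS days did not overlap, with at least 103 CPM at day 0 and at most 44.9 CPM at day 7. By day 14 the other cultivars were low too, at 7.25 ± 3.95 CPM in IS, 5.66 ± 8.94 CPM in GGI and 2.66 ± 1.69 CPM in GQ (SD, n = 3). The low day 14 level was therefore not particular to Opal. At day 7 V2_08g012340.1.01 was highest in libraries high in reads outside gene models, at 516 CPM in GGI replicate 2 and 4054 and 1576 CPM in GQ replicates 2 and 3, but it also stood at 392 CPM in GQ replicate 1, which is not one of them. The difference between Opal and the mean of the other cultivars was -7.29 on the log2 scale (edgeR, adjusted p = 0.0190). It was -5.71 without those 3 libraries (adjusted p = 0.0333), and it no longer passed without Opal day 7 replicate 3 (-6.83, adjusted p = 0.0576; lowest and highest across the alternatives 8.10e-06 and 0.0576).

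**Figure D4:**
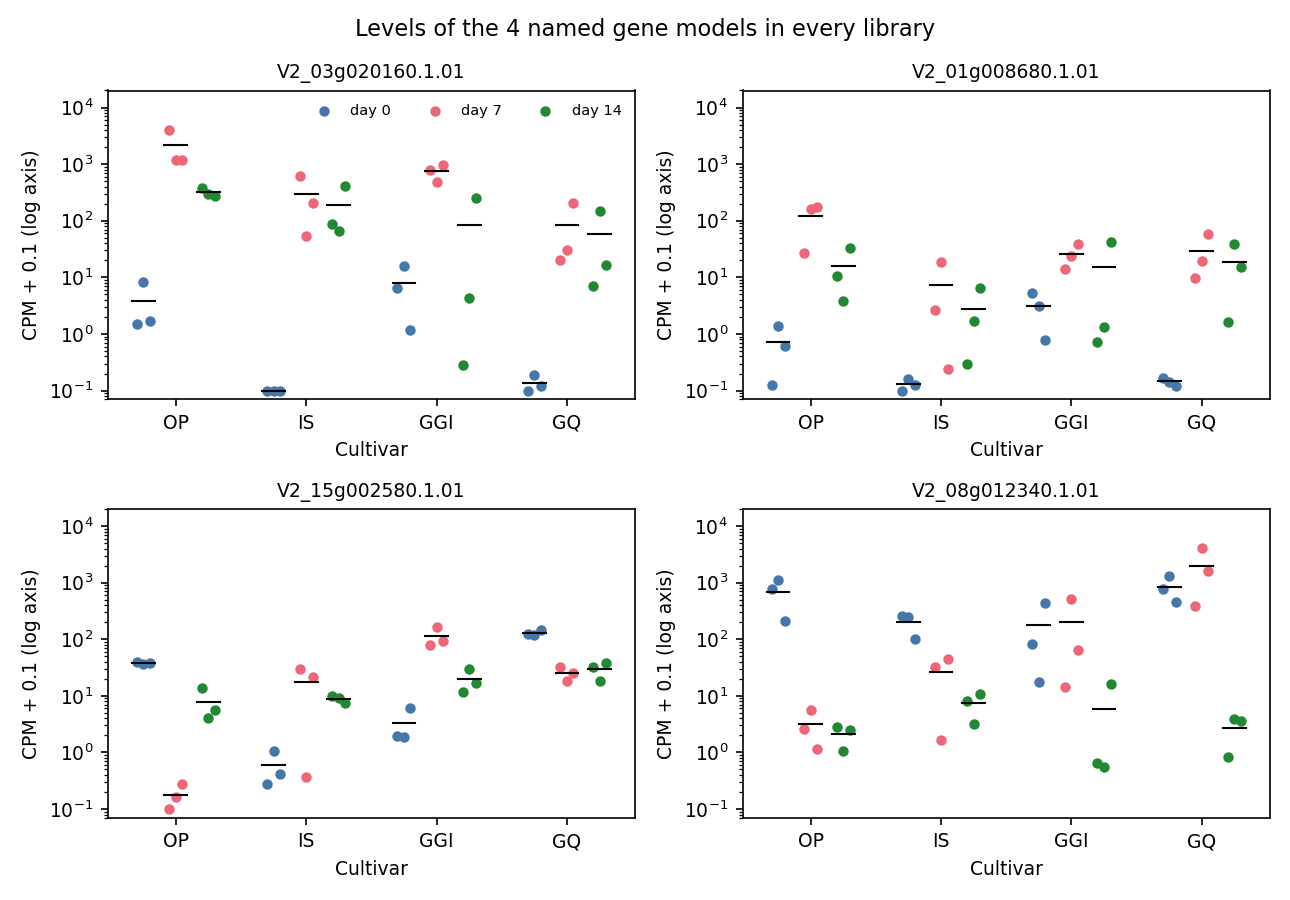
Level of the 4 named gene models in CPM + 0.1 (log axis) in each library, by cultivar (x axis) and day (colour), with a bar at the mean of 3 replicates. V2_15g002580.1.01 is near 0 at day 7 in OP, while at the same day it has a mean of 17.4 CPM in IS and 113 CPM in GGI.

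A few gene models crossed from near absence to a clear level, or back. Between day 0 and day 7 replicates 2 and 3, 17 of 28632 went from under 0.1 CPM in all day 0 libraries to over 1 CPM in both day 7 libraries, and 5 went the other way. Of the 17, 7 had 0 reads in all day 0 libraries, a count that leaves room for a level of 0.0227 CPM (3 counts summed over those libraries, counting error only). They reached 1.46 to 41.5 CPM in day 7 replicate 2 and 1.16 to 43.2 CPM in replicate 3. In replicate 1, 10 of the 17 were over 1 CPM and 6 had 0 reads. The test called 15 of the 17 with all libraries and 13 without replicate 1, against 8.59% and 3.12% of all tested. The 17, and the 5 that went the other way, were picked on values the test uses, so a high share of calls is built in. At day 14, 9 of the 17 were over 1 CPM in all Opal libraries. The 5 that were lost stood at 1.04 to 10.0 CPM at day 0 and had 0 reads in replicate 1. So did 7266 of the 21900 gene models tested, so those zeros say little about the 5. Of the 5, 4 were called with all libraries and 3 without replicate 1, and 2 had 0 reads in all day 14 libraries as well.

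As a set, the most abundant transcripts of the day 0 heart took a similar share of the reads at day 7, but single ones shifted. The 50 gene models with the highest day 0 mean took 11.9% of the reads in genes at day 0, 11.2% and 11.1% in day 7 replicates 2 and 3, and 13.0% in replicate 1. Without replicate 1, 6 of the 50 were called, 4 higher and 2 lower, where 7.24% of all gene models at 100 CPM and over were. With all libraries 14 were called, 8 higher and 6 lower, against 16.6% of that class. The highest of all, at 13739 ± 2856 CPM at day 0 (SD, n = 3), was at 785, 4427 and 4382 CPM in day 7 replicates 1, 2 and 3, which did not pass in either fit (edgeR, adjusted p = 0.0518 and 0.216 without replicate 1). The rank 32 gene model, at 1140.3 ± 397 CPM, fell to 28.4, 20.3 and 52.3 CPM, a log2 fold change of -4.99 without replicate 1 (edgeR, adjusted p = 0.00875). The rank 26 gene model rose from 1247 ± 99.8 to 6624, 4511 and 4150 CPM, a log2 fold change of 1.77 without replicate 1 (adjusted p = 0.00822).

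Called gene models were spread over the whole set of IDs. The first number in an ID runs from 1 to 17. Without replicate 1, the share called lay between 1.90% in number 10 and 3.83% in number 16, against 3.12% of all tested, and it was 1.94% in the 155 tested gene models with no such number. With all libraries it lay between 6.72% in number 8 and 9.90% in number 6, and was 4.86% in those with no number.

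At day 14 the median levels of the gene models called in the first week lay between those of day 0 and day 7. The 424 called higher had a median level of 3.80 on the log2(CPM + 0.1) scale at day 0, 5.82 in day 7 replicates 2 and 3 and 5.45 at day 14. The 271 called lower stood at 4.92, 2.96 and 3.98 on the same scale. By mean level, 136 of the 424 were higher still at day 14, 254 lay between the 2 earlier days and 34 were at or below day 0. In the 271, 54 were lower still, 162 lay between and 55 were at or above day 0. As these gene models were picked for their day 7 values, a return towards day 0 is built into these counts, and they carry no test. The same day 0 libraries were used in the picking, so lying on the day 7 side of day 0 is partly built in too. Such counts over all gene models tested are not given. Day 14 against day 0 called 7069 gene models in Opal (31.7%; without day 7 replicate 1), and it shares its day 0 libraries with the day 7 comparison.

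The other cultivars share no library with Opal, and over the same week 18.1% of gene models were called in IS, 18.4% in GGI and 39.9% in GQ (fit without Opal day 7 replicate 1). They do share the filter, scaling and estimate of the spread with Opal, so calls in different cultivars are not independent. In every cultivar, day 7 also cannot be told apart from library order. In the other cultivars, the gene models that rose in Opal also had mostly higher fitted levels at day 7. Without Opal day 7 replicate 1, 217 of the 424 (51.2%) were called higher in IS, where 10.8% of all tested were, 141 (33.3%) in GGI, against 10.1%, and 227 (53.5%) in GQ, against 19.4%. These are 8.98% of the 2417 called higher in IS, 6.24% of the 2259 in GGI and 5.23% of the 4338 in GQ. Calls in the opposite direction numbered 2 in IS (0.472%, against 7.28% of all tested), 6 in GGI (1.42%, against 8.29%) and 16 in GQ (3.77%, against 20.5%). The median log2 fold change of the 424 was 1.06 in IS, 0.70 in GGI and 1.03 in GQ, against 2.03 in Opal, and 0.00, 0.04 and -0.10 over all gene models tested. The 3 other libraries high in reads outside gene models lie in GGI and GQ. Without them 93 of the 424 (21.9%, against 2.97% of all tested) were called higher in GQ, which is then left with 1 day 7 library, and 151 (35.6%, against 14.0%) in GGI.

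Of the 271 gene models that fell in Opal, 74 (27.3%) were called lower in IS, against 7.28% of all tested, 53 (19.6%) in GGI, against 8.29%, and 87 (32.1%) in GQ, against 20.5%. Calls in the opposite direction numbered 24 in IS (8.86%, against 10.8% of all tested), 38 in GGI (14.0%, against 10.1%) and 24 in GQ (8.86%, against 19.4%). Without the 4 libraries high in reads outside gene models, 21 of the 271 (7.75%, against 4.16%) were called lower in GQ. The median log2 fold change of the 271 was -0.39 in IS, -0.13 in GGI and -0.37 in GQ, against -1.78 in Opal. Without Opal day 7 replicate 1, 66 of 22309 gene models tested rose and 7 fell by their own test in each of the 4 cultivars. With all libraries 95 of 21900 rose and 10 fell in each, and the 4 tests share 1 estimate of the spread.

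**Figure D5:**
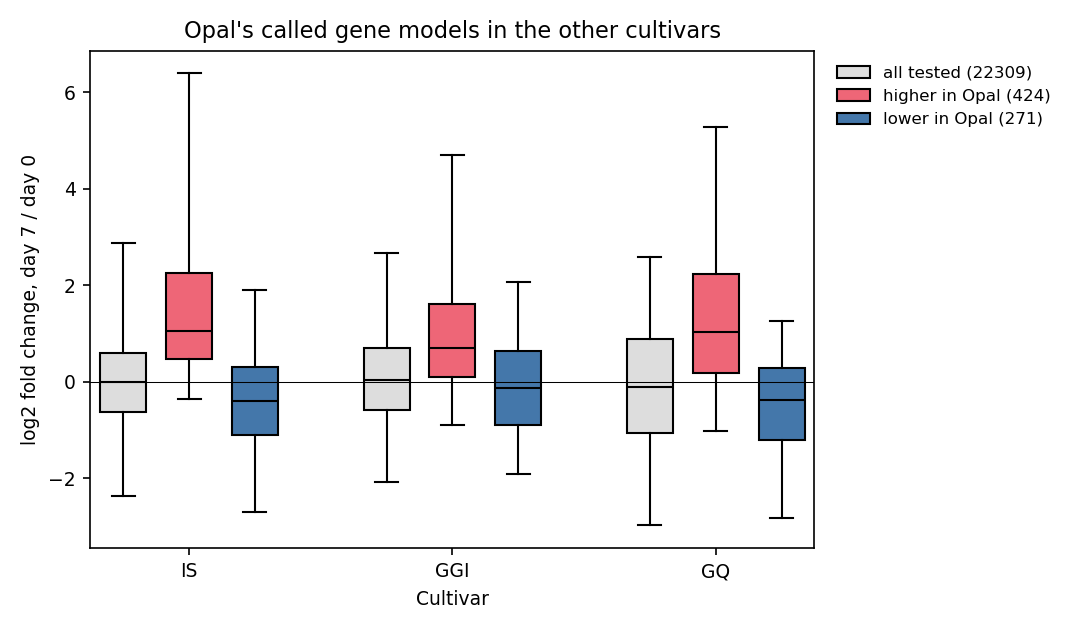
Fitted log2 fold change between day 7 and day 0 (y axis) in IS, GGI and GQ for all gene models tested and for those called higher or lower in Opal without day 7 replicate 1. Boxes show the median and quartiles and whiskers the 5th and 95th percentiles; the median of the 424 called higher in Opal is 1.06 in IS, 0.70 in GGI and 1.03 in GQ.

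The calls made with all libraries only were followed into the other cultivars. Of the 888 gene models called higher in Opal with all libraries only, 628 (70.7%) were called higher in GQ, against 17.1% of all tested, 155 (17.5%) in IS, against 8.31%, and 105 (11.8%) in GGI, against 7.77%. Without the 4 libraries high in reads outside gene models the GQ count was 111 (12.5%, against 2.97%). Of the 412 called lower with all libraries only, 126 (30.6%) were called lower in GQ, against 16.4% of all tested, 60 (14.6%) in IS, against 4.42%, and 41 (9.95%) in GGI, against 4.92%. In 1223 gene models (5.58% of those tested) Opal day 7 replicate 1 stood at least 4-fold above all of the other 5 Opal libraries, and these, chosen for their level in it, held 41.6% of its reads in genes. The next highest was replicate 2 with 102 such gene models. The median level of the 1223 on the log2(CPM + 0.1) scale was 5.92 in Opal day 7 replicate 1, 4.83 and 4.48 in GQ day 7 replicates 3 and 2, and at most 3.17 in the other 33 libraries, GGI day 7 replicate 2 included at 2.99. The part of the reads outside gene models in these levels was not tested.

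Whether the week differed between Opal and the other cultivars was tested for each gene model as the Opal change minus the mean change of the other 3. With all libraries 510 gene models differed (2.33%), 142 with a higher (0.648%) and 368 with a lower change (1.68%) in Opal. Without Opal day 7 replicate 1 there were 841 (3.77%), 325 higher (1.46%) and 516 lower (2.31%), and 375 were in both lists. Without the 3 other libraries high in reads outside gene models as well there were 1556 (6.85%). The 516 and the 325 were picked on this difference, so opposite medians in Opal and the others are largely built in. In the 516, the median log2 fold change was -0.94 in Opal and 0.85 in the mean of the others, and 118 of them also fell in Opal by its own test. In the 325 the medians were 0.77 and -0.97, and 72 also rose in Opal. These counts rested on single libraries: the 841 became 6 without day 7 replicate 2, 79 without day 7 replicate 3, and 250, 444 and 404 without day 0 replicates 1, 2 and 3. The 510 became 199, 304 and 307 without day 0 replicates 1, 2 and 3.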

How the data were processed

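For each library the authors deposited the read count of every gene model, in whole numbers with no scaling, followed by 5 summary rows; those rows were kept out of library sizes and tests. Cutadapt and STAR are named in the submitters' processing notes. Which counter, build, annotation and strand setting were used is not given in the sources used here, so overlapping or near-identical gene models are uncertain. The depth was 5.76 to 54.5 M reads in gene models (median 39.6 M).

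Groups and replicate numbers came from the titles, and the protocol calls the replicates biological. No pair of the 6 Opal libraries was alike within sampling noise (chi-square per degree of freedom at least 81.2). The analysis used R 4.3.3 and edgeR 4.0.16: filterByExpr (minimum count 10, minimum total 15), TMM scaling and robust quasi-likelihood fits with a mean per cultivar and day, over 36 libraries and then without Opal day 7 replicate 1. Biological coefficients of variation were 0.506 and 0.476. P-values were adjusted by Benjamini-Hochberg over all gene models. Each SE was taken from the log2 fold change and its F statistic, as absolute change over root F. CPM carry the TMM scaling of all libraries, except for cultivar markers. The scripts were tested on simulated data. The members, the naming rule and the alternatives were chosen with earlier results of these data known. Alternatives were DESeq2 1.42.0, voom with quality weights (limma 3.58.1), RLE scaling, other filters, fewer libraries and a replicate block.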

Additional observations from a re-analysis of the deposited data

Results flagged for a closer look

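In Opal day 7 replicate 1, 71.0% of the listed reads lay in the summary row for reads outside gene models, a row that no comparison uses, against 10.3% to 13.7% in the day 0 libraries of Opal.

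The difference between the change in Opal and the mean change of the other cultivars, tested for each gene model, was called in 510 with all libraries and in 841 without Opal day 7 replicate 1 (edgeR, adjusted p under 0.05).

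Among the named gene models, this test called V2_15g002580.1.01, with a difference of -11.06 on the log2 scale (edgeR, adjusted p = 1.56e-05), and V2_08g012340.1.01, with a difference of -7.29 (adjusted p = 0.0190). Both were named for large falls in Opal, and the test uses the same Opal values. A large negative difference is therefore favoured by the naming. Groups of 3 libraries were not tested for single outlying values.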

How the results depend on the processing

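The count for Opal with all libraries (1881) stayed within 1.5 times under RLE scaling and both other filters. It became 3539 with DESeq2 (2036 higher, 1503 lower), 4393 with voom and sample quality weights (2369 higher, 2024 lower; 1415 of the 1881 among them), 5 with the Opal libraries of both days alone, 3039 without the 3 other day 7 libraries high in reads outside gene models, and 729 with the replicate block; without single libraries it ran from 450 to 2410. Without day 7 replicate 1 the 695 became 1652 with DESeq2, 4357 with voom, 1306 with the Opal libraries alone, 2326 without the 3 other libraries and 314 with the replicate block. Without 1 more library it ran from 98 to 590 (98 and 209 without day 7 replicates 2 and 3, 265 and 228 without day 0 replicates 1 and 2), and the lone day 7 library is then assumed to vary like the other groups.

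For the difference from the other cultivars, the 510 became 1723 with DESeq2, 6571 with voom, 205 with day 0 and day 7 alone, 1199 without the 3 libraries and 211 with the replicate block, and ran from 199 to 841 without single libraries. The 841 became 2173, 6657, 354, 1556 and 115 in the same order, and ran from 6 to 444. With voom more were higher than lower in Opal (3738 and 2833), unlike the other fits with all libraries. No label says that replicate numbers pair the libraries. The deviations of same-numbered day 0 and day 7 Opal libraries correlated across gene models at -0.0818, 0.174 and 0.00634. Those of differently numbered ones ran from -0.286 to 0.182. With 3 libraries a day these values cannot exclude a pairing. The causes of the shifts in the counts were not tested. Leaving out the 2 day 14 libraries with crossed markers, an alternative chosen after seeing the data, gave 1788, 741, 489 and 845. Of the 4 named gene models, all kept their direction throughout; 1 passed with the Opal libraries alone, and the replicate block lost none. The 5.76 M reads of day 7 replicate 1 limit its low values most, since 1 read there is worth 0.276 CPM.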
